A study of Mus musculus with 10 samples.

Results

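The genes followed here, in RNA of mammary epithelial cells, are 9 genes of the matrix protease system: the metalloproteinases Mmp2, Mmp3, Mmp9, Mmp11 and Mmp14, the tissue inhibitors Timp1, Timp2 and Timp3, and the secreted protease Adamts1. They are 9 of the 16290 genes of the deposited table, each is identified by its gene name, and all 9 passed the filter on low values. The 10 libraries come from FVB mice of 4 genotypes: NIC-Prmt1 (3 libraries), NIC-Carm1 (3), NIC-Prmt6 (2) and NIC (2). All 10 libraries carry NIC, which the labels do not spell out. The other genotypes add a transgene for 1 protein arginine methyltransferase, PRMT1, CARM1 or PRMT6, enzymes that place methyl groups on arginines of histones and other proteins. The promoter that drives each transgene, the number of founder lines, and the age of the mice are not stated in the labels used here, and neither is whether the libraries of a group come from separate mice. If they do not, the p-values measure only technical spread. The cells were released from mammary glands with enzymes and enriched by short spins, and poly-A RNA was sequenced. Values are normalised read counts (reads divided by a size factor per library), and differences are on the log2(value + 1) scale, where the added 1 draws differences of low genes towards no change.

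Matrix metalloproteinases are zinc enzymes that cut collagens, laminins and other proteins outside the cell. Most are made as inactive proenzymes, and TIMP proteins block the active site of the mature enzymes. The best studied activation step joins 3 of the genes described here: MMP14, which is anchored in the cell membrane, holds TIMP2, and TIMP2 in turn binds proMMP2 so that a second MMP14 molecule can cut it into active MMP2. In the mammary gland these enzymes take part in branching of the ducts and in the removal of matrix when the gland regresses, and much of their RNA is made by fibroblasts, vessel cells and macrophages of the stroma.

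The starts of 4 genes are shown, Mmp3 because its promoter differs most from the others in base composition and motifs, and Timp2, Timp3 and Adamts1 because their levels moved together across the libraries. Each is the 250 bases before the RefSeq transcript start (GRCm38.p6), in the direction of the gene, and 7 of the 9 genes had an entry (all but Mmp2 and Mmp9). Capitals mark matches on either strand to any of 5 motifs. These were the AP-1 motif, written TGANTCA, and the TATA box, written TATAAA. The Sp1 box was searched as GGGCGG and the ETS motif as AGGAAG. The last was the box known as CCAAT.
Mmp3: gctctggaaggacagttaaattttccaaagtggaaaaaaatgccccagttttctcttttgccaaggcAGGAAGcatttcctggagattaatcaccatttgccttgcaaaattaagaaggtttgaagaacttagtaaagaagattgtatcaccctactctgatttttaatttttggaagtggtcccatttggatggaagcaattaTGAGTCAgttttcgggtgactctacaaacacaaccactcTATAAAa
Timp2: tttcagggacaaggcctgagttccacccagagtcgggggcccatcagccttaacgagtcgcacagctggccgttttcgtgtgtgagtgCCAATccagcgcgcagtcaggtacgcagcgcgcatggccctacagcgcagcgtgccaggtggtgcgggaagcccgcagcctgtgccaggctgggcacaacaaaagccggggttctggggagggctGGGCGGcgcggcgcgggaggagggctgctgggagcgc
Timp3: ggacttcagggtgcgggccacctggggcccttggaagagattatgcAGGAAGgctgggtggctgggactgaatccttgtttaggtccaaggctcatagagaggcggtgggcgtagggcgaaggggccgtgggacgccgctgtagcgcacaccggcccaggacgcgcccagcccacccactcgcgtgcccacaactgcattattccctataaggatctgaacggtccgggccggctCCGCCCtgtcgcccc
Adamts1: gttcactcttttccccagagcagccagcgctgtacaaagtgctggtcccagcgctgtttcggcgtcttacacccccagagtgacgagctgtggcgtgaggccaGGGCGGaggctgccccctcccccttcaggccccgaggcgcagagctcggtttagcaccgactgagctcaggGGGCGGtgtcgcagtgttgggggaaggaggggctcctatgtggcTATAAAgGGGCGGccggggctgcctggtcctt
The Mmp3 promoter lies at chr9:7445572-7445821 on the plus strand, Timp2 at chr11:118355412-118355661 on the minus strand, Timp3 at chr10:86300162-86300411 on the plus strand and Adamts1 at chr16:85803114-85803363 on the minus strand. Mmp3 has an AP-1 match that begins 46 bases before the start, TATAAA 7 bases before it and AGGAAG 183 bases before it. It was 1 of the 7 promoters with an AP-1 match and the others had none, and 6.73% of 32536 mouse promoters of this length hold that motif. GGGCGG, which 33.0% of promoters hold, is absent from Mmp3 and present in the 6 other promoters, including Timp2, Timp3 and Adamts1. Adamts1 carries it at 3 places and has TATAAA 32 bases before the start, a motif found in 12.3% of promoters. The GC content was 37.6% for Mmp3, against 68.0% for Timp2, 65.6% for Timp3 and 65.6% for Adamts1. These matches describe the letters only.

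The libraries held between 21589274 and 30260921 recovered reads. NIC-Carm1 replicates 2 and 3, and NIC-Prmt6 replicates 1 and 2, were nearly identical: the chi-square per degree of freedom of their reads over genes was 2.69 and 2.44, against 28.0 to 105 in the 6 other pairs within a group. The spread within NIC-Prmt6 and within those 2 NIC-Carm1 libraries is therefore smaller than between other replicates, and results are also given with each such pair averaged into 1 library. NIC-Carm1 replicate 1 stood apart from the other libraries of its group. Prmt6 was the 1 targeted gene that set the group named after it apart from every other, at 891 ± 25.6 in NIC-Prmt6, against 419 ± 45.1 in NIC (SD, n = 2 each). Carm1 and Prmt1 did not set their own groups apart, so for those 2 groups the names are those of the labels. Carm1 was at 1556 and 1567 in NIC and at 2025 to 2479 in the transgene libraries. It was higher than in NIC by 0.46 in NIC-Prmt1, 0.57 in NIC-Carm1 and 0.60 in NIC-Prmt6 (log2 fold change, limma, adjusted p = 0.00639, 0.00490 and 0.00204). Summed over 7 luminal epithelial markers such as Krt8, Epcam and Krt7, the level was 131467 to 210371 in the 3 transgene groups and 281837 and 240223 in NIC. Epithelial RNA was thus present in every library, and the sum was lower in all 8 transgene libraries. The markers did not all follow the sum. In NIC-Prmt1 against NIC, where 29.6% of all genes changed, 3 of the 7 were lower and 2 were higher. These were Krt7 by 0.67 and Krt19 by 0.60 (log2 fold change, limma, adjusted p = 0.00230 and 0.0127). Markers of stromal cells were present in every library too: no marker of the fibroblast, pericyte, endothelial or macrophage lists had 3 reads or fewer in any of them. In such bulk samples, fewer cells of a type and less RNA per cell cannot be told apart.

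Mmp14 had the smallest adjusted p (limma) of the 9 genes in each comparison of a transgene group with NIC. Mmp9 and Mmp11 were also above both NIC libraries in all 8 transgene libraries. Mmp14 (chr14:54431612-54445364, plus strand, GRCm38, protein coding) encodes the membrane enzyme that activates proMMP2 and cuts fibrillar collagen. It had normalised read counts of 6694, 5150 and 5922 in NIC-Prmt1, 3855, 5776 and 5521 in NIC-Carm1, 6994 and 6939 in NIC-Prmt6, and 2457 and 2361 in NIC. All 8 transgene libraries were above both NIC libraries, and the lowest of them was NIC-Carm1 replicate 1. Taken group by group, many genes had no overlap with NIC in either direction. The share was 55.3% of the 15694 genes tested in NIC-Prmt1, 47.9% in NIC-Carm1 and 76.6% in NIC-Prmt6. Against NIC, Mmp14 rose by 1.29 ± 0.17 in NIC-Prmt1 (log2 fold change ± SE, limma, adjusted p = 0.00114). It rose by 1.05 ± 0.17 in NIC-Carm1 and by 1.53 ± 0.18 in NIC-Prmt6 (limma, adjusted p = 0.00446 and 3.86e-04). The NIC-Carm1 difference no longer passed with nearly identical libraries averaged (limma, adjusted p = 0.0520).

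Mmp2 (chr8:92827291-92853420, plus strand), the gelatinase that MMP14 activates, was highest in NIC-Prmt6. Its normalised read counts were 7161, 5395 and 8107 in NIC-Prmt1, 7614, 3893 and 3807 in NIC-Carm1, 14706 and 15073 in NIC-Prmt6, and 3738 and 4209 in NIC. Both NIC-Prmt6 libraries stood above all others, and 2 of the 3 NIC-Carm1 libraries lay within the NIC range while replicate 1 was 1.98 times their mean. Mmp2 rose by 1.91 ± 0.30 in NIC-Prmt6 against NIC (limma, adjusted p = 0.00143). In NIC-Prmt1 the difference from NIC was 0.78 ± 0.27 and missed the threshold (limma, adjusted p = 0.0574). Every NIC-Prmt1 library was above both NIC libraries, and 55.3% of all genes tested had no overlap between these groups, in either direction. The difference passed in 5 of 21 alternative settings, but not with nearly identical libraries averaged. Among the 5 were the fits without NIC-Prmt1 replicate 2 (limma, adjusted p = 0.0341) and without NIC-Carm1 replicate 1 (limma, adjusted p = 0.00477). NIC-Carm1 is not part of this comparison: without that library the difference stayed at 0.78 and the spread, shared over all groups, changed. In NIC-Carm1 the difference from NIC was 0.28 ± 0.27 (95% interval -0.33 to 0.90).

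Timp2 (chr11:118301069-118355740, minus strand), which both inhibits metalloproteinases and serves as the adaptor for proMMP2, was also highest in NIC-Prmt6. Its normalised read counts were 14723, 10883 and 12048 in NIC-Prmt1, 5646, 8962 and 8594 in NIC-Carm1, 22821 and 22970 in NIC-Prmt6, and 8015 and 6960 in NIC. The groups lay at 3 levels, with NIC-Prmt6 on top, NIC-Prmt1 below it, and NIC-Carm1 overlapping NIC. Timp2 rose by 1.62 ± 0.22 in NIC-Prmt6 (limma, adjusted p = 6.33e-04) and by 0.74 ± 0.20 in NIC-Prmt1 (limma, adjusted p = 0.0205), both against NIC. The NIC-Prmt1 call was lost without NIC-Prmt1 replicate 1, NIC replicate 1 or NIC replicate 2, where limma's adjusted p was 0.0558, 0.0574 and 0.128. In NIC-Carm1 the difference from NIC was 0.02 ± 0.20, with a 95% interval of -0.42 to 0.46.

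**Figure D1:**
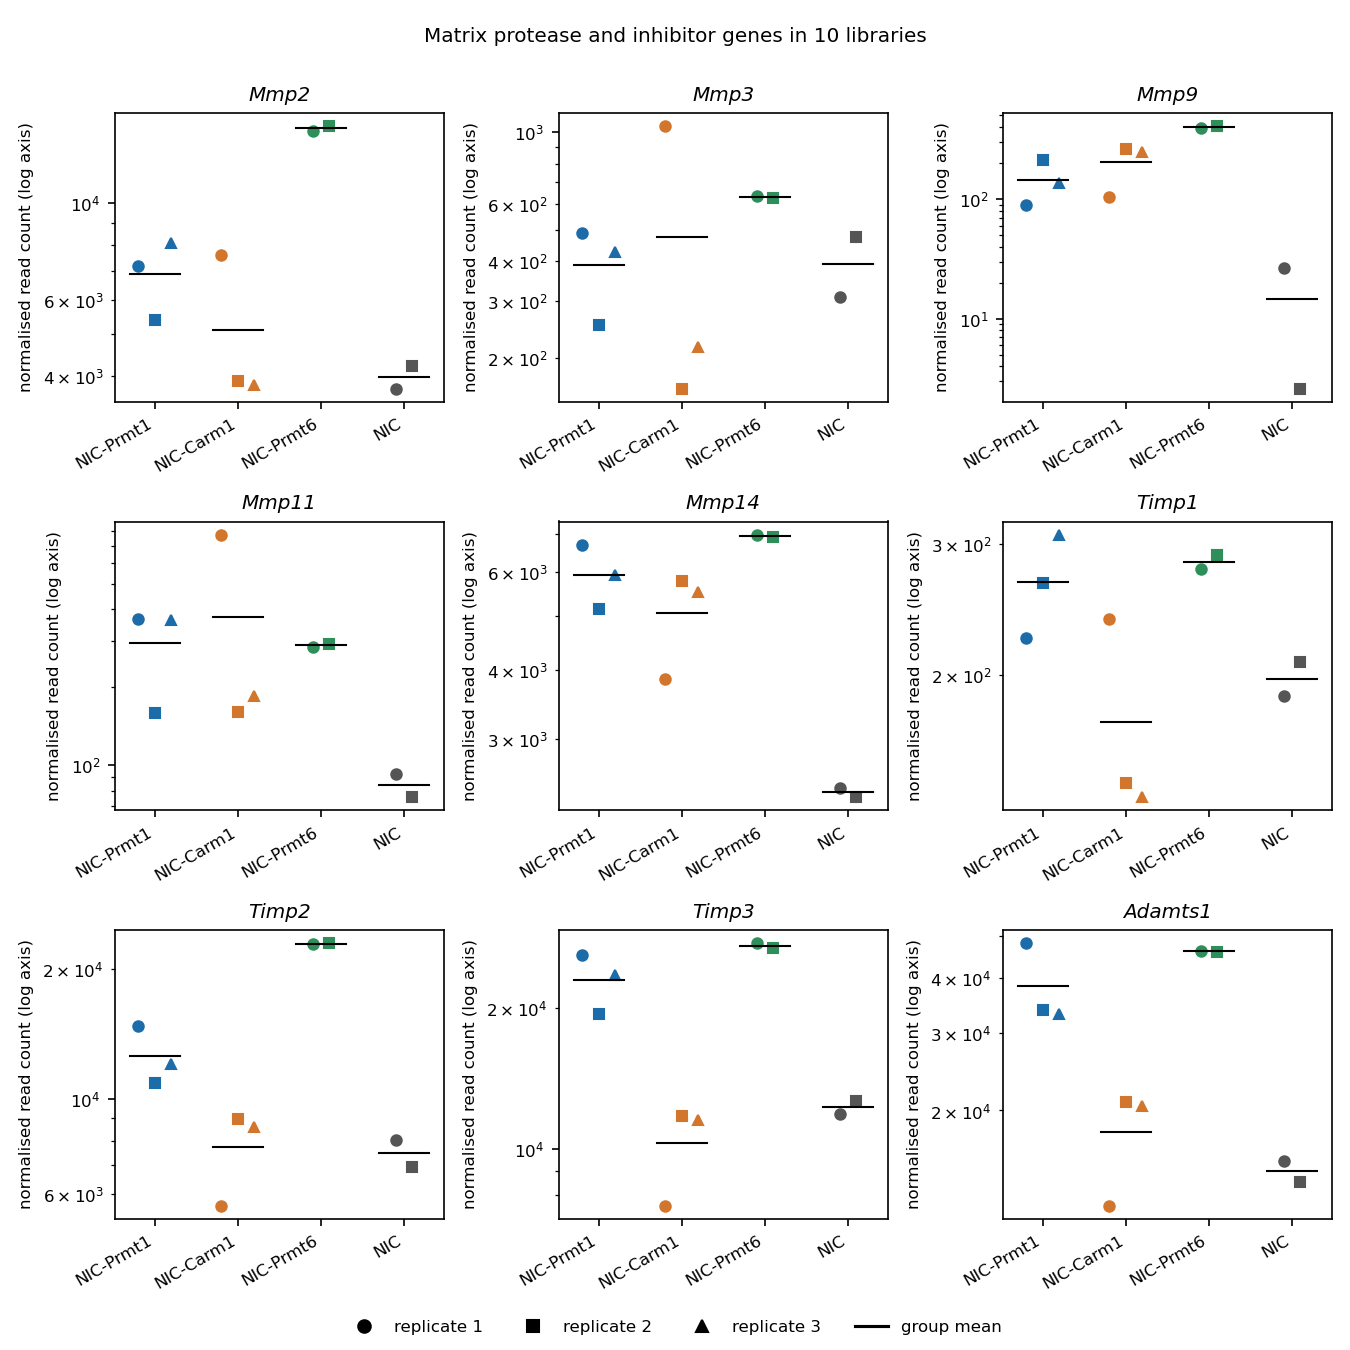
Normalised read count (log axis) of each of the 9 genes in the 10 libraries, with a panel per gene, a symbol per replicate and a line at the group mean. NIC libraries lie lowest for Mmp9, Mmp11 and Mmp14, NIC-Prmt6 libraries lie highest for Mmp2, Mmp9 and Timp2, and NIC-Carm1 replicate 1 stands apart from replicates 2 and 3 in every panel.

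Within a library, Mmp2 and Timp2 kept a similar proportion in most samples. The ratio of Mmp2 to Timp2 normalised read counts was 0.486, 0.496 and 0.673 in NIC-Prmt1, 0.434 and 0.443 in NIC-Carm1 replicates 2 and 3, 0.644 and 0.656 in NIC-Prmt6, and 0.466 and 0.605 in NIC. NIC-Carm1 replicate 1 alone was at 1.35, with high Mmp2 and low Timp2. The ratio of Mmp14 to Timp2 was 0.455, 0.473 and 0.492 in NIC-Prmt1, 0.683, 0.644 and 0.642 in NIC-Carm1, 0.306 and 0.302 in NIC-Prmt6, and 0.307 and 0.339 in NIC. By that measure NIC-Carm1 was highest in all 3 libraries and NIC-Prmt6 lay just below NIC.

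Mmp9 (chr2:164940780-164955850, plus strand), the second gelatinase, is best known from macrophages and neutrophils and is released during inflammation and vessel growth. It had the largest differences from NIC of the 9 genes. Its normalised read counts were 89.1, 211 and 136 in NIC-Prmt1, 104, 262 and 246 in NIC-Carm1, 390 and 407 in NIC-Prmt6, and 26.5 and 2.6 in NIC. Every transgene library was above both NIC libraries, and NIC replicate 1 was 10.2 times NIC replicate 2, which had only 2 recovered reads. Mmp9 rose by 3.80 ± 0.73 in NIC-Prmt1 (limma, adjusted p = 0.00542), by 4.25 ± 0.73 in NIC-Carm1 (limma, adjusted p = 0.00593) and by 5.33 ± 0.80 in NIC-Prmt6 (limma, adjusted p = 0.00116), all against NIC. The NIC-Carm1 call was lost with nearly identical libraries averaged (limma, adjusted p = 0.0585).

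The size of the Mmp9 difference turns on the few NIC reads. Pooled over libraries, 420 reads in NIC-Prmt1, 665 in NIC-Carm1 and 904 in NIC-Prmt6 stood against 30 in NIC. After size factors, the ratio to NIC was 8.90 for NIC-Prmt1 (exact 95% interval 6.14 to 13.4), 12.9 for NIC-Carm1 (8.97 to 19.3) and 24.3 for NIC-Prmt6 (16.9 to 36.2), intervals that cover counting error only. The fitted differences correspond to larger ratios, 13.9, 19.1 and 40.2, as they average logarithms over libraries and NIC replicate 2 was very low. The fitted log2 fold change moved between 2.33 and 5.26 in NIC-Prmt1, 2.79 and 5.72 in NIC-Carm1, and 3.86 and 6.79 in NIC-Prmt6, the lower value without NIC replicate 2 and the higher without NIC replicate 1. The direction and the call held in both cases.

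Macrophage markers, like Mmp9, were highest in NIC-Prmt6. Summed over 8 macrophage markers, the normalised level was 6419, 12458 and 10505 in NIC-Prmt1, 11874, 15658 and 16007 in NIC-Carm1, 19667 and 20132 in NIC-Prmt6, and 9102 and 5987 in NIC. Per 1000 normalised reads of those markers, Mmp9 was 13.9, 17.0 and 13.0 in NIC-Prmt1, 8.73, 16.8 and 15.4 in NIC-Carm1, 19.9 and 20.2 in NIC-Prmt6, and 2.91 and 0.434 in NIC. Of the 8 markers, 2 rose in NIC-Prmt1 and 2 in NIC-Carm1 against NIC, Mrc1 and Cd163 in both. There 29.6% and 16% of all genes changed. In NIC-Prmt1 the other markers did not pass. Their log2 fold changes ran from -0.09 for Adgre1 to 0.52 for Lyz2 (limma, adjusted p 0.417 to 0.836). Mrc1, the mannose receptor of resident macrophages, had normalised read counts of 663, 1241 and 799 in NIC-Prmt1, 567, 1613 and 1594 in NIC-Carm1, 3011 and 2988 in NIC-Prmt6, and 247 and 63.7 in NIC. Per 1000 normalised reads of Mrc1, a ratio chosen after the values were seen, Mmp9 was 134, 170 and 171 in NIC-Prmt1, 183, 163 and 155 in NIC-Carm1, 130 and 136 in NIC-Prmt6, and 107 and 40.8 in NIC. NIC was the lowest group by both measures, and lay closer to the transgene groups per Mrc1 read than per read of the whole list. Mrc1 was among the 3 genes nearest to Mmp9 across these same libraries, so a steadier ratio per Mrc1 read is no separate result. Of 5 mast cell markers, 4 rose in each transgene group against NIC (4 in NIC-Prmt1, 2 in NIC-Carm1 and 4 in NIC-Prmt6 with nearly identical libraries averaged), and Mcpt4, a mast cell protease, had normalised read counts of 377, 908 and 936 in NIC-Prmt1, 276, 704 and 770 in NIC-Carm1, 1388 and 1385 in NIC-Prmt6, and 41.6 and 70.2 in NIC. Neutrophil markers stayed low, with sums over the 5 of 8 in the table between 134 and 309 in every library. Of those 5, 1 was called, Retnlg, higher in NIC-Prmt6 by 2.24 (limma, adjusted p = 0.0260) at 30 reads or fewer in every library. In NIC-Prmt6, 36.8% of all genes changed. The part of macrophage, mast cell or neutrophil RNA in the Mmp9 result was not tested.

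Mmp11 (chr10:75923222-75936496, minus strand), or stromelysin 3, is made by fibroblasts near human breast tumours and, unlike most of the family, leaves the cell in active form. Its values were 366, 158 and 363 in NIC-Prmt1, 772, 160 and 184 in NIC-Carm1, 286 and 293 in NIC-Prmt6, and 92.6 and 75.4 in NIC. All 8 transgene libraries were above both NIC libraries, but with a wide spread inside NIC-Prmt1 and NIC-Carm1. Of all genes tested, 55.3% in NIC-Prmt1, 47.9% in NIC-Carm1 and 76.6% in NIC-Prmt6 had no overlap with NIC. The differences from NIC were 1.71 ± 0.60 in NIC-Prmt1 (adjusted p = 0.0549), 1.75 ± 0.60 in NIC-Carm1 (adjusted p = 0.0745) and 1.78 ± 0.66 for NIC-Prmt6 (adjusted p = 0.0564), and none passed limma's threshold. Of 21 alternative settings, the NIC-Prmt1 difference passed in 6, that of NIC-Carm1 in 1 and that of NIC-Prmt6 in 5. None passed with nearly identical libraries averaged. Without NIC-Carm1 replicate 1, at 772 the highest library, the NIC-Prmt1 and NIC-Prmt6 differences did pass (limma, adjusted p = 0.00452 and 0.00440). Their size was unchanged, as that library enters only the spread shared over all groups. Both also passed, more narrowly, without NIC-Prmt1 replicate 2 (0.0280 and 0.0448) and without NIC-Carm1 replicate 2 (0.0488 and 0.0483). In NIC-Carm1 the difference was 1.03 without replicate 1, and DESeq2 on all libraries called it (adjusted p = 0.0258). Exons of Mmp11 share 155 bases with Chchd10 on the other strand, whose normalised read count was 463 to 1721. No source used here gives the strand setting of the counting, so some Mmp11 reads may belong to Chchd10.

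Mmp3 (chr9:7445822-7455975, plus strand), or stromelysin 1, cuts laminin and fibronectin and activates other proenzymes. It had normalised read counts of 487, 254 and 426 in NIC-Prmt1, 1044, 161 and 216 in NIC-Carm1, 633 and 627 in NIC-Prmt6, and 309 and 473 in NIC. The NIC-Prmt1 and NIC-Carm1 libraries lay on both sides of NIC. NIC-Prmt6 lay above it, in a comparison where 76.6% of all genes tested had no overlap. No difference between groups passed limma's threshold, with adjusted p between 0.277 and 0.978 over the 6 comparisons. NIC-Carm1 replicate 1 held 5.53 times the mean of replicates 2 and 3. Without it Mmp3 was lower in NIC-Carm1 than in NIC, with a log2 fold change of -1.03 (limma, adjusted p = 0.0418). That fit leaves only the nearly identical replicates 2 and 3 in NIC-Carm1.

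Timp3 (chr10:86300372-86349506, plus strand) is the inhibitor that binds to the matrix and also blocks ADAM and ADAMTS proteases. It had normalised read counts of 25932, 19392 and 23487 in NIC-Prmt1, 7584, 11801 and 11567 in NIC-Carm1, 27524 and 26813 in NIC-Prmt6, and 11889 and 12699 in NIC. The libraries split into a high set, NIC-Prmt1 and NIC-Prmt6, and a low set, NIC-Carm1 and NIC, with no overlap between the sets. Between a single group of 1 set and a single group of the other, 43% to 76.6% of all genes tested had no overlap. Timp3 rose by 0.89 ± 0.19 in NIC-Prmt1 (limma, adjusted p = 0.00873) and by 1.14 ± 0.21 in NIC-Prmt6 (limma, adjusted p = 0.00298) against NIC. Without NIC replicate 1 the NIC-Prmt1 call was just lost (limma, adjusted p = 0.0556). In NIC-Carm1 the difference was -0.28 ± 0.19, with a 95% interval of -0.71 to 0.15. Of 8144 exonic bases of Timp3, 1733 are shared with Syn3 on the other strand, which had at most 176 normalised reads.

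Timp1 (chrX:20870166-20874735, plus strand), a secreted inhibitor that cytokines induce, was the least variable of the 9 genes, its highest library at 2.26 times its lowest. Timp1 had normalised read counts of 224, 266 and 309 in NIC-Prmt1, 238, 143 and 137 in NIC-Carm1, 278 and 290 in NIC-Prmt6, and 187 and 208 in NIC. The NIC-Prmt1 and NIC-Prmt6 libraries were above both NIC libraries and the NIC-Carm1 libraries lay on both sides of them. Of all genes tested, 55.3% had no overlap between NIC-Prmt1 and NIC, and 76.6% had none between NIC-Prmt6 and NIC. No difference from NIC passed limma's threshold: it was 0.42 ± 0.24 for NIC-Prmt1 (adjusted p = 0.208), -0.24 ± 0.24 for NIC-Carm1 (adjusted p = 0.533) and 0.52 ± 0.26 for NIC-Prmt6 (adjusted p = 0.143). The last passed in 2 of 21 alternative settings, 1 of them without NIC-Carm1 replicate 1 (limma, adjusted p = 0.0370). That library is not part of the comparison, and without it the difference stayed at 0.52 while the spread, shared over all groups, changed. With nearly identical libraries averaged it did not pass.

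Adamts1 (chr16:85793827-85803113, minus strand) cuts the proteoglycans aggrecan and versican and is made by vessel and stromal cells. Its normalised read counts were 48062, 33794 and 33129 in NIC-Prmt1, 12142, 20944 and 20424 in NIC-Carm1, 46104 and 45917 in NIC-Prmt6, and 15384 and 13717 in NIC. As for Timp3, NIC-Prmt1 and NIC-Prmt6 formed the high set without overlap, and NIC-Carm1 lay on both sides of NIC. Adamts1 rose by 1.38 ± 0.24 in NIC-Prmt1 (limma, adjusted p = 0.00372) and by 1.66 ± 0.26 in NIC-Prmt6 (limma, adjusted p = 0.00149), and in NIC-Carm1 the difference was 0.25 ± 0.24 (95% interval -0.29 to 0.79). Per kilobase of exon, Adamts1 had the highest mean level over the libraries of the 9 genes, 5462 normalised reads, followed by Timp2 (3122), Timp3 (2194), Mmp2 (2186), Mmp14 (867), Mmp3 (257), Timp1 (257), Mmp11 (99.0) and Mmp9 (53.0).

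**Figure D2:**
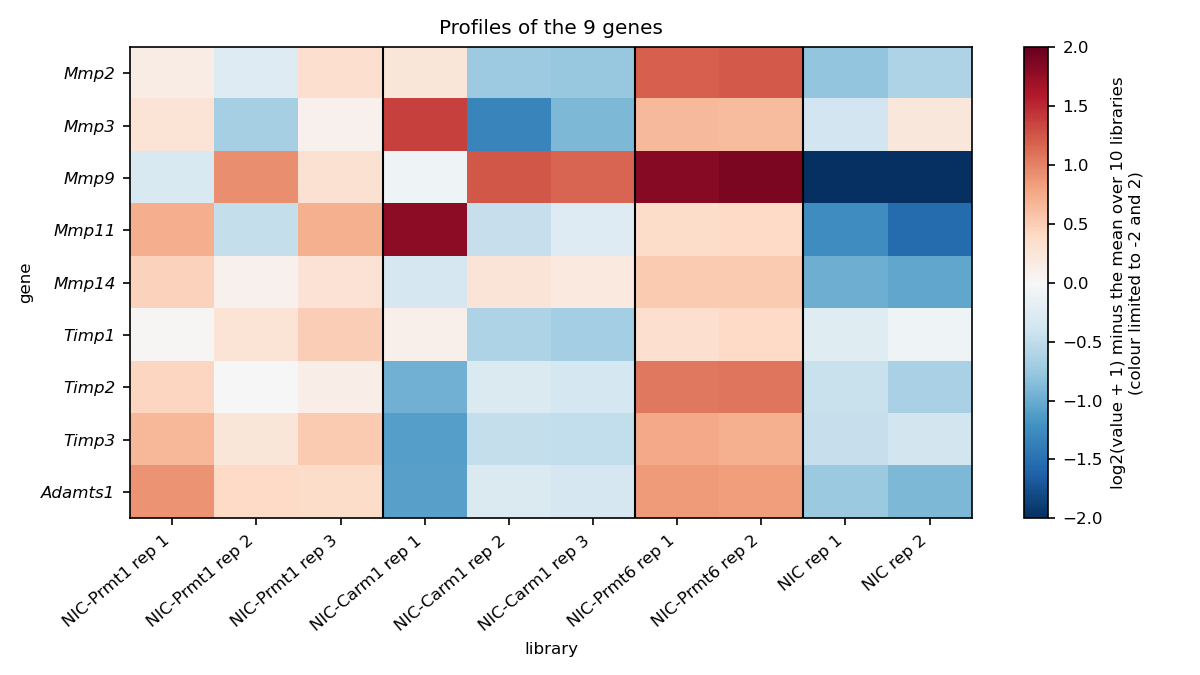
Level of each of the 9 genes (rows) in each library (columns) as log2(value + 1) minus the gene's mean over the 10 libraries, with red above and blue below the mean and colours limited to -2 and 2. Timp2, Timp3 and Adamts1 share a pattern with NIC-Prmt1 and NIC-Prmt6 above NIC-Carm1 and NIC, whereas Mmp9, Mmp11 and Mmp14 are lowest in NIC.

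The order of the groups by mean differed between genes. For Timp2 it ran NIC-Prmt6, NIC-Prmt1, NIC-Carm1, NIC, and the first 2 steps passed limma's threshold (adjusted p = 0.0270 and 0.0158) while NIC-Carm1 and NIC overlapped (adjusted p = 0.958). For Timp3 the order was NIC-Prmt6, NIC-Prmt1, NIC, NIC-Carm1, and the step between NIC-Prmt1 and NIC passed. For Adamts1 the step that passed lay between NIC-Prmt1 and NIC-Carm1 (limma, adjusted p = 0.00614). For Mmp14, ordered NIC-Prmt6, NIC-Prmt1, NIC-Carm1, NIC, it lay between NIC-Carm1 and NIC. For Mmp9, ordered NIC-Prmt6, NIC-Carm1, NIC-Prmt1, NIC, it lay between NIC-Prmt1 and NIC. For Mmp2 only the step between NIC-Prmt6 and NIC-Prmt1 passed (limma, adjusted p = 0.0364), and for Mmp3, Mmp11 and Timp1 no step between neighbours passed. The libraries of neighbouring groups overlapped at every step for Mmp3, but they did not overlap between NIC-Prmt6 and NIC for Mmp11 or between NIC-Prmt1 and NIC for Timp1. In those 2 comparisons 76.6% and 55.3% of all genes tested had no overlap.

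Most of the 9 genes were higher in NIC-Prmt1 and in NIC-Prmt6 than in NIC, and none passed as lower. In NIC-Prmt1, 5 of the 9 rose (Mmp9, Mmp14, Timp2, Timp3 and Adamts1), where 29.6% of all 15694 genes tested changed in either direction with 15.2% higher and 14.4% lower. In NIC-Prmt6, 6 of the 9 rose (those 5 and Mmp2), where 36.8% of all genes changed, with 19% higher and 17.8% lower. In NIC-Carm1, 2 of the 9 rose (Mmp9 and Mmp14), where 16% of all genes changed, with 6.65% higher and 9.36% lower. The median log2 fold change of the 9 genes was 0.89 in NIC-Prmt1, 0.25 in NIC-Carm1 and 1.62 in NIC-Prmt6, and that of all genes was within 0.011 of 0 in each. These 3 comparisons share the NIC libraries, so their counts are not independent. With nearly identical libraries averaged, the counts were 5 in NIC-Prmt1, 0 in NIC-Carm1 and 6 in NIC-Prmt6, where 16.7%, 2.19% and 10.7% of all genes changed.

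Between NIC-Prmt1 and NIC-Carm1, the genes of the 9 that passed were the inhibitors and Adamts1. In NIC-Prmt1 against NIC-Carm1, where 26.8% of all genes changed, with 14.9% higher and 11.8% lower, 4 of the 9 genes were higher: Timp1 by 0.66 ± 0.21, Timp2 by 0.72 ± 0.18, Timp3 by 1.17 ± 0.17 and Adamts1 by 1.12 ± 0.22 (limma, adjusted p = 0.0458, 0.0158, 0.00229 and 0.00614). None of the 5 metalloproteinases among the 9 passed there, and for Mmp14 the difference was 0.24 ± 0.15 (95% interval -0.09 to 0.58). The Timp1 call was lost in 12 of 21 alternative settings. Among them were the averaged libraries (limma, adjusted p = 0.211) and the fits without any 1 of 8 libraries (all but NIC-Prmt1 replicate 1 and NIC-Carm1 replicate 1; adjusted p 0.0591 to 0.149). The Timp2 call was lost without NIC-Prmt1 replicate 1 (limma, adjusted p = 0.0542). Without NIC-Carm1 replicate 1, Mmp2 and Mmp3 were higher in NIC-Prmt1 as well (limma, adjusted p = 0.00663 and 0.0298). That fit leaves only the nearly identical replicates in NIC-Carm1.

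In NIC-Carm1 against NIC-Prmt6, where 39.2% of all genes changed, with 18.4% higher and 20.9% lower, 6 of the 9 genes were lower in NIC-Carm1. The log2 fold changes were -1.60 ± 0.20 for Timp2, -1.62 ± 0.27 for Mmp2, -1.43 ± 0.19 for Timp3, -1.41 ± 0.24 for Adamts1, -0.76 ± 0.24 for Timp1 and -0.49 ± 0.17 for Mmp14, with limma's adjusted p between 3.68e-04 for Timp2 and 0.0429 for Mmp14. With nearly identical libraries averaged, 3 calls remained, for Timp2, Timp3 and Adamts1, where 8.1% of all genes changed. The Mmp14 call was lost in 11 of 21 alternatives, including without NIC-Prmt1 replicate 3, NIC-Carm1 replicate 1 or any 1 NIC-Prmt6 or NIC library (limma, adjusted p 0.0577 to 0.170). The Timp1 call was lost in 7, including without NIC-Carm1 replicate 2 or 3 or either NIC-Prmt6 library (limma, adjusted p 0.0886 to 0.145). In NIC-Prmt1 against NIC-Prmt6, where 7.49% of all genes changed, with 2.54% higher and 4.94% lower, Mmp2 and Timp2 were lower in NIC-Prmt1, with log2 fold changes of -1.13 ± 0.27 and -0.88 ± 0.20 (limma, adjusted p = 0.0364 and 0.0270). Neither call held with NIC-Prmt6 replicates 1 and 2 averaged (limma, adjusted p = 0.298 and 0.285) or with either of them left out (0.228 and 0.234 for Mmp2, 0.202 and 0.198 for Timp2). Both were also lost without NIC-Prmt1 replicate 2 (limma, adjusted p = 0.0867 and 0.0670) and replicate 3 (0.0656 and 0.0861), and Mmp2 without NIC replicate 1 or 2 (0.0512 and 0.0515).

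**Figure D3:**
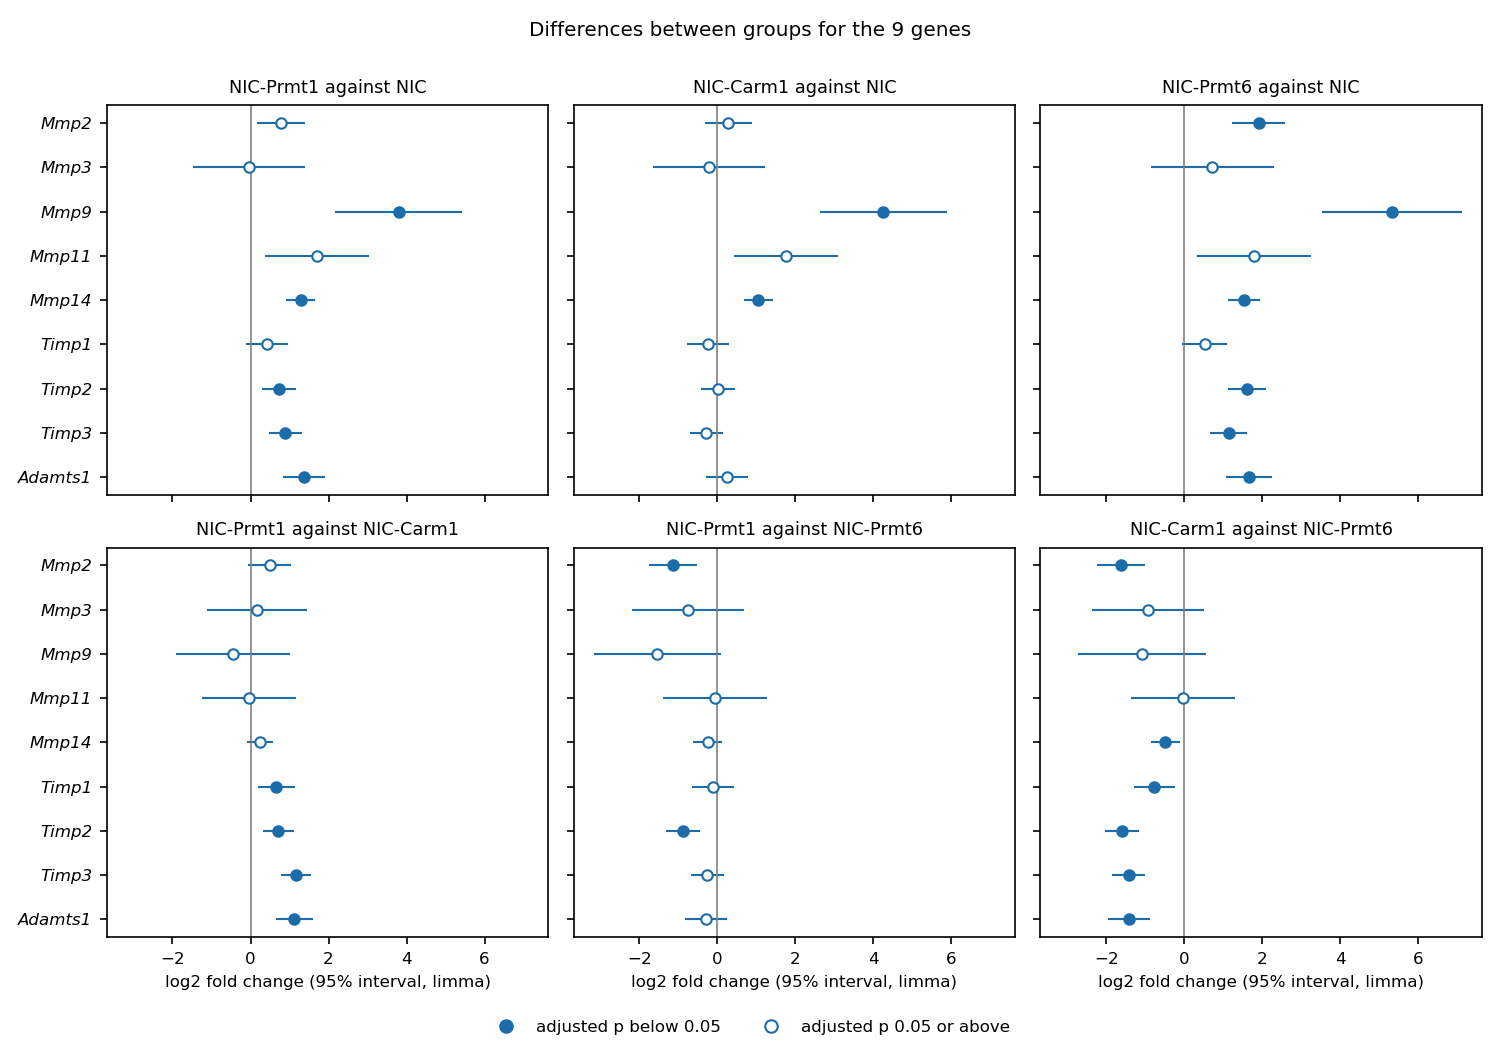
Log2 fold change with 95% interval (limma) of the 9 genes in the 6 comparisons, with filled points at an adjusted p below 0.05 and open points otherwise. Points lie to the right for Mmp9 and Mmp14 in all 3 comparisons with NIC, and near 0 for Timp2, Timp3 and Adamts1 in NIC-Carm1 against NIC.

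NIC-Carm1 replicate 1 weighed on several of these results. Relative to the mean of replicates 2 and 3 it was higher for Mmp3 (5.53 times), Mmp11 (4.48 times), Mmp2 (1.98 times) and Timp1 (1.70 times) and lower for Mmp9 (0.407 times), Adamts1 (0.587 times), Timp2 (0.643 times), Timp3 (0.649 times) and Mmp14 (0.683 times). The summed level of the 5 metalloproteinases over that of the 3 inhibitors was 0.994 in that library, against 0.490 and 0.491 in the others of its group. The same ratio was 0.362, 0.366 and 0.417 in NIC-Prmt1, 0.455 and 0.466 in NIC-Prmt6, and 0.330 and 0.358 in NIC. All 8 transgene libraries were above both NIC libraries in that ratio, by little in NIC-Prmt1 replicates 1 and 2.

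**Figure D4:**
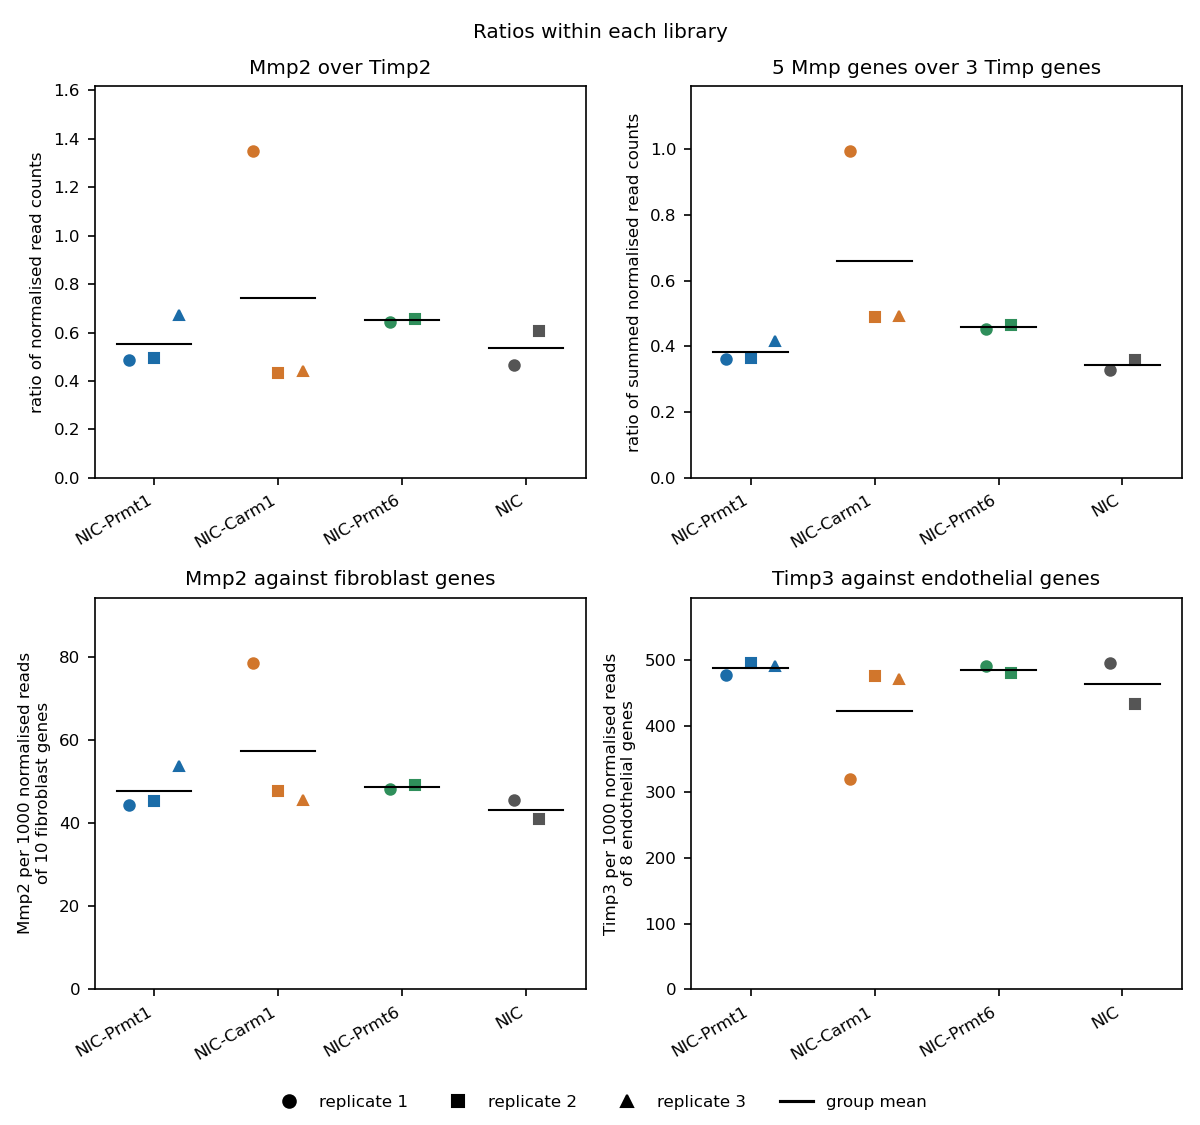
Ratios of normalised read counts within each library by group (linear axes from 0, a symbol per replicate, lines at the group mean): Mmp2 over Timp2, the 5 Mmp genes over the 3 Timp genes, Mmp2 per 1000 reads of 10 fibroblast genes and Timp3 per 1000 reads of 8 endothelial genes. NIC-Carm1 replicate 1 stands apart in all 4 panels, at 1.35, 0.994, 78.6 and 320, and the other 9 libraries lie close together for Timp3 against the endothelial genes, at 433 to 496. The fibroblast and endothelial lists were picked after the values were seen, as the steadiest for Mmp2 and Timp3.

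Markers of several cell types differed between the groups along with the 9 genes. Counts of markers are against NIC, where 29.6% of all genes changed in NIC-Prmt1, 16% in NIC-Carm1 and 36.8% in NIC-Prmt6. The NIC-Prmt6 counts rest on 2 nearly identical libraries. With nearly identical libraries averaged, 16.7%, 2.19% and 10.7% of all genes changed. The fibroblast, endothelial, pericyte and luminal counts are given only without that averaging and may be smaller with it. Fibroblast markers summed to 161863, 119132 and 150719 in NIC-Prmt1, 96905, 81528 and 83514 in NIC-Carm1, 305536 and 306210 in NIC-Prmt6, and 82172 and 102751 in NIC. Collagens made up most of it: in NIC-Prmt6 replicate 2, Col1a1, Col1a2 and Col3a1 were at 58268, 65525 and 99493. Of the 10 markers, 6 rose in NIC-Prmt1, none rose and 1 fell in NIC-Carm1, and 10 rose in NIC-Prmt6. Endothelial markers summed to 54330, 39100 and 47766 in NIC-Prmt1, 23716, 24735 and 24546 in NIC-Carm1, 55970 and 55835 in NIC-Prmt6, and 23948 and 29321 in NIC, and all 8 rose in NIC-Prmt1 and in NIC-Prmt6 and none in NIC-Carm1. Pericyte markers summed to 32067, 21199 and 21340 in NIC-Prmt1, 13402, 17008 and 16349 in NIC-Carm1, 28747 and 29943 in NIC-Prmt6, and 10553 and 9989 in NIC, with 6, 3 and 6 of 6 called higher than NIC. Markers of luminal cells went the other way in part, with 2 higher and 3 lower of 7 in NIC-Prmt1 and 5 lower in each of NIC-Carm1 and NIC-Prmt6. Of 8 macrophage markers, 2 rose in NIC-Prmt1, 2 in NIC-Carm1 and 7 in NIC-Prmt6, or 2, 1 and 3 with nearly identical libraries averaged. Of 7 myoepithelial markers, 6 rose in NIC-Prmt1, none in NIC-Carm1 and 1 in NIC-Prmt6, or 5, 0 and 0 with the averaging. NIC-Prmt1 replicates 1 and 3 also held skin keratinocyte markers, at summed levels of 19388 and 2079, against at most 99.5 in any other library.

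Set against the steadiest of 11 cell type lists for each gene, a choice made after the values were seen, all but Timp1 spanned less from lowest to highest library than on their own. Taking the smallest of 11 spans favours such a result, and no spans of other genes are given to compare. Over all 10 libraries Mmp2 spanned 1.92 times per fibroblast read and 4.03 times alone, and Timp3 spanned 1.55 times per endothelial read and 3.63 times alone. Timp2 spanned 1.73 times per endothelial read and 4.07 times alone. Adamts1 spanned 1.77 times per pericyte read and 3.96 times alone, and Mmp14 spanned 1.63 times per pericyte read and 2.96 times alone. For Mmp2, Timp3 and Adamts1 the extreme library was NIC-Carm1 replicate 1. Per 1000 reads of those lists it had 78.6 for Mmp2, 320 for Timp3 and 906 for Adamts1, against 41.0 to 53.8, 433 to 496 and 1231 to 1604 in the other 9 libraries. Timp1 spanned 2.43 times per endothelial read, more than its 2.26 times alone. Mmp3 spanned 5.45 times per fibroblast read and 6.48 times alone, Mmp11 6.39 times per macrophage read and 10.2 times alone, and Mmp9 46.5 times per macrophage read and 156 times alone. The part of stromal RNA in the differences between groups was not tested.

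The genes most like each of the 9 across the libraries were sought among 12596 genes with a mean of at least 50. The measure was the root-mean-square difference of centred log2 values over the 10 libraries, which share depth and cell make-up. Timp3 was nearest to Gstm2 (0.0749), Emp3 (0.0946) and Cav1 (0.0982), against a spread of its own of 0.624. Adamts1 was nearest to Col14a1 (0.0783), Galnt16 (0.0868) and Bmp5 (0.135), and Timp2 to Adamtsl3 (0.106), Ebf1 (0.116) and Adamtsl4 (0.116). Mmp2 was nearest to Ccdc85a (0.129), Pla1a (0.151) and Ctsk (0.171), and Mmp14 to Hoxb4 (0.152) and Sgsh (0.160). Mmp9, whose own spread was the widest at 1.98, was nearest to the macrophage lectin genes Cd209d (0.317) and Cd209f (0.342) and then to Mrc1 (0.477). Mmp3 (nearest Lrrc15, 0.400), Mmp11 (nearest Ppargc1b, 0.394) and Timp1 (nearest Nfkbie, 0.154) had neighbours at larger distances relative to their own spread. Among themselves, Timp3 and Adamts1 were closest (0.236), then Timp2 and Timp3 (0.256) and Timp2 and Adamts1 (0.266), and Mmp3 and Mmp9 were farthest apart (2.20).

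The counts of the other lists are to be read beside the share of all genes that changed against NIC, 29.6% in NIC-Prmt1, 16% in NIC-Carm1 and 36.8% in NIC-Prmt6, or 16.7%, 2.19% and 10.7% with nearly identical libraries averaged. Other metalloproteinase genes changed in both directions. Of 18 listed, 10 were tested, and 4 rose and 2 fell in NIC-Prmt1, 1 rose in NIC-Carm1, and 5 rose and 2 fell in NIC-Prmt6, each against NIC. Mmp19, a secreted enzyme that cuts basement membrane proteins, had normalised read counts of 445, 432 and 605 in NIC-Prmt1, 300, 275 and 273 in NIC-Carm1, 1714 and 1699 in NIC-Prmt6, and 292 and 335 in NIC. It rose by 2.44 ± 0.17 in NIC-Prmt6 (limma, adjusted p = 5.21e-05) and by 0.64 ± 0.15 in NIC-Prmt1 (limma, adjusted p = 0.0133). Mmp23 and Mmp28 also rose in both, by 1.86 and 1.32 in NIC-Prmt6 and by 1.08 and 1.38 in NIC-Prmt1. Mmp13, a collagenase, fell by 1.51 in NIC-Prmt1 and by 1.74 in NIC-Prmt6, and Mmp15, a membrane enzyme like Mmp14, rose by 0.42 in NIC-Carm1. In NIC-Prmt1 against NIC-Carm1, 4 of the 10 were higher, among them Mmp19 by 0.79, Mmp23 by 1.03 and Mmp28 by 0.77, and 1 was lower, Mmp16 with a log2 fold change of -1.24. With nearly identical libraries averaged, the counts were 3 higher and 1 lower in NIC-Prmt1, 0 in NIC-Carm1, and 2 higher in NIC-Prmt6, each against NIC, and 2 higher in NIC-Prmt1 against NIC-Carm1.

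Of 8 other inhibitors and modulators tested, 3 rose and 1 fell in NIC-Prmt1, 1 fell in NIC-Carm1, and 4 rose and 1 fell in NIC-Prmt6. Timp4, the fourth TIMP gene, had normalised read counts of 287, 247 and 358 in NIC-Prmt1, 133, 119 and 104 in NIC-Carm1, 657 and 655 in NIC-Prmt6, and 192 and 224 in NIC. Timp4 thus rose by 1.66 ± 0.20 in NIC-Prmt6 (limma, adjusted p = 3.86e-04) and fell by 0.81 ± 0.18 in NIC-Carm1 (limma, adjusted p = 0.0175). Reck, a membrane-anchored inhibitor of Mmp2, Mmp9 and Mmp14, rose by 1.10 in NIC-Prmt6 and by 0.49 in NIC-Prmt1. A2m, a plasma protein that traps proteases, fell by 4.67 in NIC-Prmt6 and by 3.69 in NIC-Prmt1. With the nearly identical libraries averaged, 1 rose and 1 fell in NIC-Prmt1, none changed in NIC-Carm1, and 4 rose and 1 fell in NIC-Prmt6.

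Of 18 other Adamts genes, relatives of Adamts1, 8 rose in NIC-Prmt1, 3 rose and 2 fell in NIC-Carm1, and 12 rose in NIC-Prmt6. Adamts12 was higher in all 3, by 1.12 ± 0.16 in NIC-Prmt1, 0.93 ± 0.16 in NIC-Carm1 and 2.20 ± 0.17 in NIC-Prmt6, and Adamts9 fell by 1.07 in NIC-Carm1. The versican and aggrecan proteases Adamts4 and Adamts5 rose by 1.92 and 1.89 in NIC-Prmt6. With nearly identical libraries averaged, 6 rose in NIC-Prmt1, 1 rose and 1 fell in NIC-Carm1, and 5 rose in NIC-Prmt6. Of 9 ADAM sheddases, which cut proteins at the cell surface, 2 rose and 2 fell in NIC-Prmt1, 1 rose and 1 fell in NIC-Carm1, and 5 rose in NIC-Prmt6, or 2, 1 and 4 higher and none lower after the averaging.

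The plasminogen system, whose product plasmin can activate several proenzymes of this family, had 2 genes, Plau and Plaur, that fell in both NIC-Prmt1 and NIC-Carm1. Of its 7 genes tested, 1 rose and 2 fell in NIC-Prmt1, 2 fell in NIC-Carm1, and 3 rose in NIC-Prmt6. Plau, the urokinase gene, had normalised read counts of 1724, 1813 and 1887 in NIC-Prmt1, 1031, 1010 and 1233 in NIC-Carm1, 3214 and 3459 in NIC-Prmt6, and 2283 and 2343 in NIC. It fell by 0.36 ± 0.10 in NIC-Prmt1 and by 1.09 ± 0.10 in NIC-Carm1 and rose by 0.53 ± 0.11 in NIC-Prmt6 (limma, adjusted p = 0.0275, 4.29e-04 and 0.00582). Its receptor Plaur fell by 0.79 ± 0.18 in NIC-Prmt1 and by 1.98 ± 0.18 in NIC-Carm1 (limma, adjusted p = 0.0106 and 4.29e-04). After averaging of nearly identical libraries, 1 of the 7 genes rose and 1 fell in NIC-Prmt1, 2 fell in NIC-Carm1 and 2 rose in NIC-Prmt6.

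Among 14 matrix genes that these proteases cut, 10 rose and 1 fell in NIC-Prmt1, 1 rose and 1 fell in NIC-Carm1, and 11 rose in NIC-Prmt6. The list shares Col1a1, Col1a2 and Col3a1 with the fibroblast markers, so the counts of the 2 lists are not separate. Nid1, a basement membrane linker, rose by 0.91 ± 0.10 in NIC-Prmt1, by 0.44 ± 0.10 in NIC-Carm1 and by 2.33 ± 0.11 in NIC-Prmt6 (limma, adjusted p = 6.11e-04, 0.0189 and 2.04e-05). Fn1, the fibronectin gene, rose by 2.75 ± 0.29 in NIC-Prmt6 (limma, adjusted p = 2.27e-04), and Thbs1 fell by 1.75 ± 0.24 in NIC-Carm1 (limma, adjusted p = 0.00210). After the averaging, 8 rose and 1 fell in NIC-Prmt1, 1 fell in NIC-Carm1, and 8 rose in NIC-Prmt6.

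Factors known to act on metalloproteinase promoters were also counted. Of 15 AP-1, ETS and related factors, 5 rose in NIC-Prmt1, 2 fell in NIC-Carm1, and 5 rose and 2 fell in NIC-Prmt6, beside the 29.6%, 16% and 36.8% of all genes that changed. After averaging of nearly identical libraries, 4 rose in NIC-Prmt1, 2 fell in NIC-Carm1 and 1 rose in NIC-Prmt6. Fosl1, an AP-1 subunit, fell by 2.67 ± 0.31 in NIC-Carm1, and Ets1 fell by 0.81 ± 0.12 there (limma, adjusted p = 0.00110 and 0.00323). Fos rose by 1.31 in NIC-Prmt1 and by 0.96 in NIC-Prmt6. Of 12 cytokines and growth factors that induce metalloproteinases, 3 rose and 3 fell in NIC-Prmt1, 1 rose and 3 fell in NIC-Carm1, and 4 rose and 2 fell in NIC-Prmt6. Of 11 genes for activation and clearance, such as the receptor Lrp1, 3 rose and 2 fell in NIC-Prmt1, 1 rose and 3 fell in NIC-Carm1, and 4 rose and 4 fell in NIC-Prmt6, and Lrp1 itself rose by 1.68 ± 0.19 in NIC-Prmt6 (limma, adjusted p = 2.85e-04). After the same averaging, 2 rose and 2 fell among the 12 in NIC-Prmt1, none changed in NIC-Carm1 and 3 rose in NIC-Prmt6, and among the 11, 3 rose and 2 fell in NIC-Prmt1, none changed in NIC-Carm1, and 3 rose and 1 fell in NIC-Prmt6.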

How the data were processed

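RNA-seq of 10 libraries in 4 groups was used. Per the submitters' processing notes, the tools were TopHat2 2.0.10, HTSeq 0.6.0 and DESeq 1.18.0, on mm10; neither the annotation nor the strand setting is given in the sources used here. The deposited signal is a normalised read count: 100% of the values in each library were whole multiples of a smallest step (tolerance 0.01), which gave back whole reads.

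As the file holds no raw counts, the main test was limma-trend (limma 3.58.1, R 4.3.3) on log2(value + 1), for 15694 genes (at 10 or more in 2 or more libraries), with all 10 libraries and 4 group means in 1 fit (6 residual degrees of freedom). P-values were adjusted by Benjamini-Hochberg over all genes tested, with a threshold of 0.05. The 21 alternatives include edgeR 4.0.16 and DESeq2 1.42.0 on recovered reads, rescaling, other pseudocounts and filters, a replicate block, averaged libraries and each library left out. The text names all 9 genes and, of each other list, at most the 4 genes with the smallest adjusted p per comparison plus any needed to explain a count. Likeness used the 3 nearest genes, without predicted or clone names; 1 of them is not reported here. The genes and lists were chosen with earlier results of these data known. Gene positions are from GENCODE release 21 for mouse (GRCm38).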

Additional observations from a re-analysis of the deposited data

How the results depend on the processing

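Of the 25 differences of the 9 genes that passed the threshold, 14 held in all 21 alternatives, and of the 29 that did not pass, 18 stayed so; no called difference changed sign. Averaging nearly identical libraries moved the genes called to 2606 in NIC-Prmt1, 341 in NIC-Carm1 and 1667 in NIC-Prmt6 (4645, 2513 and 5778 without that change), each against NIC, to 1364 in NIC-Prmt1 against NIC-Carm1 (4199 without that change), 16 in NIC-Prmt1 against NIC-Prmt6 (1175 without that change) and 1261 in NIC-Carm1 against NIC-Prmt6 (6157 without that change), with 0, 0 and 3 of the 9 genes called in NIC-Carm1 against NIC, NIC-Prmt1 against NIC-Prmt6 and NIC-Carm1 against NIC-Prmt6. With the 2 compared groups alone, 2785 and 1596 genes were called in NIC-Prmt1 and NIC-Carm1 against NIC. DESeq2 called 2119 in NIC-Prmt1 against NIC-Prmt6. Upper-quartile rescaling moved the share of calls that were higher to 51.6% in NIC-Carm1 against NIC (41.5% without that change) and to 51.2% in NIC-Prmt1 against NIC-Prmt6 (34.0% without that change).

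Same-numbered libraries showed no clear shared deviation (1 of 13 correlations over 0.1, range -0.13 to 0.10). The 13 are not independent, as deviations in a group of 2 libraries mirror each other. NIC-Prmt6 with NIC thus gave 0.0024 for both replicate numbers. The check is weak, also because the NIC-Prmt6 libraries were nearly identical. With the replicate block, 1667 genes were called in NIC-Carm1 against NIC, and 571 genes and 0 of the 9 in NIC-Prmt1 against NIC-Prmt6.

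Leaving out each library gave 3 to 7 of the 9 genes and 2271 to 5646 genes in NIC-Prmt1 against NIC (fewest genes without NIC replicate 2), 2 to 3 and 708 to 3384 in NIC-Carm1 against NIC (fewest without NIC replicate 1), and 6 to 8 and 2656 to 6632 in NIC-Prmt6 against NIC (fewest without NIC-Prmt6 replicate 1). The ranges were 3 to 6 and 2638 to 4692 in NIC-Prmt1 against NIC-Carm1, 0 to 2 and 47 to 2241 in NIC-Prmt1 against NIC-Prmt6, and 4 to 6 and 2569 to 6799 in NIC-Carm1 against NIC-Prmt6. The causes were not tested. Depth limits Mmp9 in NIC, where 1 library had 2 reads.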
